A study of Mus musculus with 24 samples.

Results

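The genes described are the 84 protein-coding genes of the cytosolic ribosome, chosen by symbol (Rpl or Rps and a number, with Rplp0, Rplp1, Rplp2 and Rpsa) out of 55471 genes in the count tables. They comprised 32 genes of the small subunit and 52 of the large subunit, 7 of which are paralogs of another gene in the set (Rpl3l, Rpl7l1, Rpl10l, Rpl22l1, Rpl36al, Rpl39l and Rps27l). A further 6 matching symbols belong to genes that are not protein-coding and were left out. The study followed N6-methyladenosine (m6A) on RNA over the maternal-to-zygotic transition, in which oocyte RNA is cleared and the embryonic genome is switched on. Metaphase II (MII) oocytes and embryos came from superovulated B6D2F1 (C57BL/6J × DBA/2N) females of 8 weeks. MII oocytes were collected 14 to 16 h, late 1-cell (L1C) embryos 27 to 29 h and late 2-cell (L2C) embryos 48 to 50 h after human chorionic gonadotropin (hCG). For SLIM-seq, a low-input method that precipitates unfragmented RNA with an m6A antibody, each stage had 3 libraries of precipitated RNA (IP) and 3 input libraries. In a separate experiment, zygotes were injected with mRNA of the RNA-cutting enzyme Cas13d plus 3 guide RNAs against Ythdc1, a nuclear reader of m6A (Ythdc1 KD), or with Cas13d mRNA alone (Ctrl), and 3 L2C libraries were made of each. The Ctrl embryos thus carried Cas13d but no guide RNA, so the guides and the loss of Ythdc1 cannot be told apart.

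Ribosomal proteins assemble with ribosomal RNA into the small subunit, which decodes mRNA, and the large subunit, which forms peptide bonds and holds the exit tunnel. Their mRNAs begin, in most mammalian cells, with a 5′ terminal oligopyrimidine (TOP) tract, through which the kinase mTOR and the binding protein Larp1 control their translation and stability. The growing oocyte builds a large store of ribosomes, and the embryo begins to make new ones after its own genome becomes active. Ribosomal protein genes have also left many processed pseudogenes, which are intronless copies of the spliced mRNA, so that reads from the gene and from its copies are hard to tell apart.

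That relation was pronounced in these tables. Matching annotated pseudogenes to the transcripts of the set assigned 1930 pseudogenes to 81 of the 84 genes, of which 246 were at least 98% identical to their parent. Rpl7a had the most, 163, while Rpl41, Rpl39l and Rpl3l had none. Rpl10l and Rpl36al are themselves single-exon genes. The genes had a median of 5 exons and an mRNA of 882 bases, against 7 exons and 2549.5 bases over 21780 other protein-coding genes. Their longest internal exon had a median of 152.5 bases, against 214 bases. The letters GGAC, the core most often methylated in mammalian mRNA, occurred on the transcribed strand in 82 of 84 of their mRNAs at a median of 3.46 per kilobase, against 98.2% of 21726 other mRNAs and 4.00 per kilobase. A small nucleolar RNA gene lay within the span of 30 of them, and 19 spans overlapped another protein-coding gene.

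RefSeq start sites (GRCm38.p6) were at hand for 64 of the genes. A TOP tract, taken as a C at the first transcribed base followed by at least 4 C or T on the transcribed strand, stood at the annotated start of 13 of these 64 (20.3%), of 4 of 13 genes on a list of 20 other TOP mRNAs, of 0 of 68 genes of mitochondrial ribosomal proteins and of 3.01% of 27025 genes of all kinds. The windows below give 8 bases before and 22 from the annotated start, with the pyrimidine run that opens the transcript in capitals. They are shown for 4 genes described below that have the tract at the annotated start (Rpl15, Rpl28, Rpl38 and Rps27) and for 3 of the strongest or most regulated genes that do not have it at that base (Rpl41, Rps26 and Rpl39l).
Rpl15, chr14:18270965-18270994, minus strand: aaagccttCTTCCTTTCCTCTggcggcagc
Rpl28, chr7:4792957-4792986, plus strand: tcgtgtctCTCTTTCCgtctccggccgcca
Rpl38, chr11:114668572-114668601, plus strand: gcctcgttCTTTCCCCgttctcttcggttc
Rps27, chr3:90213627-90213656, minus strand: ctttcgctCCTTTCCggcggtgacgacctc
Rpl41, chr10:128549147-128549176, minus strand: gccggctcggaagtgacgacaccgagcacg
Rps26, chr10:128626485-128626514, minus strand: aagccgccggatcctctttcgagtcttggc
Rpl39l, chr16:10170220-10170249, plus strand: gcctttccggatttccggtggtcgccattc
In Rps26 a pyrimidine stretch begins a few bases downstream of the annotated base, and an annotated start need not be the base used in oocytes or embryos.

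The libraries held 11107421 to 39739950 estimated counts in SLIM-seq and 8696476 to 14500548 counts in the 5 knockdown libraries that cover the whole annotation. SLIM-seq counts were estimated with kallisto on whole gene spans, introns included, and the knockdown counts were of reads on exons with featureCounts, so levels are not comparable between the experiments. Levels are given in CPM, which scales each count to the library total. Calls are Benjamini-Hochberg adjusted p under 0.05 in edgeR's quasi-likelihood test over all genes tested, with replicate libraries as n. The labels do not say that replicates are separate collections of animals, so p-values measure the spread between these libraries. Listed oocyte markers summed to 19950 to 21200 CPM in MII inputs, 7212 to 7647 in L1C and 956 to 970 in L2C, and listed 2-cell markers to 29.1 to 34.2, 134 to 178 and 561 to 735 CPM. Of 14 cumulus and granulosa cell markers Ptx3 was at 0 in all 9 inputs, and the list summed to 17.6 to 31.8 CPM in MII and L1C and to 277 to 291 in L2C, where Amhr2 alone gave a mean of 270.1. The part of other cells in the levels below was not tested.

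Ribosomal protein genes took a very small share of the oocyte and 1-cell libraries and a far larger one at the late 2-cell stage. In MII inputs they held 0.0165%, 0.0199% and 0.0235% of all estimated counts. In L1C inputs the shares were 0.0151%, 0.0178% and 0.0155%. In L2C inputs they were 0.309%, 0.360% and 0.313%, with no overlap with the earlier stages. The means were 0.0200% ± 0.0035, 0.0161% ± 0.0015 and 0.327% ± 0.028 (SD, n = 3 each). The pseudogenes held more than their parents in the early stages, with 80.2% ± 1.3 of the joint sum in MII, 80.4% ± 0.7 in L1C and 40.4% ± 1.5 in L2C inputs. Genes and pseudogenes together held 0.101%, 0.0822% and 0.548%, so the rise at L2C remained when they were summed. These are shares of each library, so a gene can gain share while its RNA per embryo is level, and in bulk samples fewer cells of a type and less RNA per cell cannot be told apart. The paper's methods describe reverse transcription from an oligo-dT primer, which binds poly(A) tails. The part of tail length in these shares was not tested. In Ctrl L2C libraries, counted on exons, the mean share was 2.47%, so the shares on gene spans are no measure of the absolute level.

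**Figure D1:**
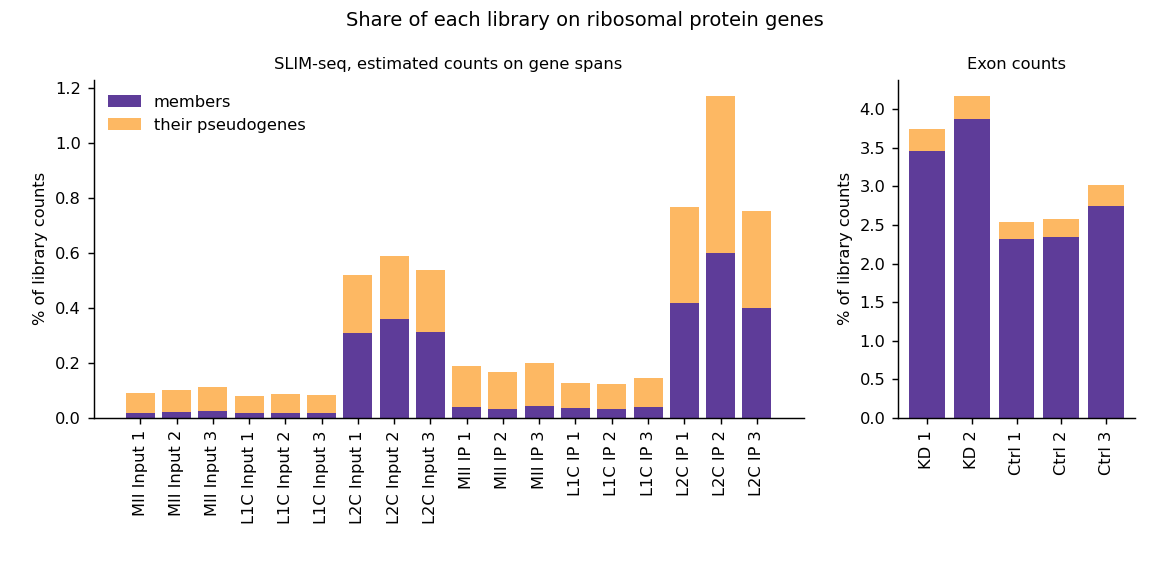
Percent of all counts in each library on the 84 ribosomal protein genes (purple) and on their 1930 pseudogenes (orange), for the 18 SLIM-seq libraries (left) and the 5 knockdown libraries that cover the whole annotation (right, with its own axis). The 3 L2C inputs carry 0.309% to 0.360% on the genes against 0.0151% to 0.0235% in the 6 earlier inputs, and L2C IP replicate 2 has the highest bar of SLIM-seq.

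The increase from L1C to L2C involved nearly the whole set. Of the 84 genes, 82 rose and 1 fell, against 44.2% of 15239 protein-coding genes called higher and 39.4% called lower (44.1% and 38.8% of all 19903 genes tested). The median log2 change was 4.43 in the set and 0.15 over protein-coding genes. With pseudogenes added to each gene 81 rose and 3 fell, and the median was 3.74, with 74 genes above 2 and 38 above 4. All 32 small subunit genes rose, with a median of 4.85, and 50 of 52 large subunit genes did, with a median of 4.06. Counted on the genes alone, the change exceeded 2 on the log2 scale in 77 genes and 4 in 50 genes, and 82 genes were higher and 1 was lower in every L2C input than in any L1C input (46.5% and 38.3% of protein-coding genes). All 84 passed the filter on low counts in the fit of 9 inputs, but 32 of them did so only through their L2C libraries. Among the 52 that passed on the MII and L1C inputs alone, 50 rose and 1 fell. At the floor of 3 counts per library stood 8 genes in L1C, and with these at their lower bound the median of the set was 4.26.

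Rpl41, which encodes the smallest ribosomal protein, carried the largest part of the L2C signal. It had 5.14, 4.76 and 3.66 CPM in MII, 1.46, 2.94 and 3.11 in L1C and 1080, 1487 and 1005 in L2C inputs. The L2C libraries were all above the earlier ones, and the L2C against L1C change was 8.82 ± 0.28 (log2 ± SE, adjusted p = 3.29e-12). Its 3-exon locus (chr10:128548114-128549305, minus strand, GRCm38) has no assigned pseudogene, and it held 32.2% to 41.3% of the set's counts in L2C inputs against 0.967% to 3.11% in the 6 earlier ones. Without Rpl41 the share of the set was still 0.201% to 0.212% in L2C against 0.0149% to 0.0232% in the earlier inputs.

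Among the other steepest rises, Rps26, a small subunit protein at the mRNA exit channel, had 0.166, 0.420 and 0.211 CPM in L1C and 79.3, 66.9 and 87.8 in L2C (log2 change 8.09 ± 0.32, adjusted p = 1.83e-11). Rpl24, of the large subunit, had 0, 1 and 0 counts in L1C and 280, 245 and 344 in L2C, at least 74.5-fold higher when L1C is set to the floor of 3 counts per library, as for the next genes. Rps27, of the small subunit, had 1, 1 and 2 counts against 248, 181 and 430, at least 69.4-fold higher. For Rpl13 (at least 33.4-fold higher) and Rpl38 (at least 6.65-fold higher), both of the large subunit, no read was assigned in any L1C input. In each of these genes the L2C libraries stood above all L1C libraries. With pseudogenes added the log2 changes were 7.75 for Rps26, 5.65 for Rpl24, 4.37 for Rps27, 4.18 for Rpl13 and 6.90 for Rpl38, all called, so the folds of Rpl24, Rps27 and Rpl13 were then below the bounds given.

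The P-stalk, which recruits translation factors to the large subunit, rose in full from L1C to L2C. Rplp0 had 2.37, 4.20 and 4.16 CPM in L1C and 98.4, 103 and 98.4 in L2C inputs (log2 change 4.72 ± 0.28, or 2.96 ± 0.16 with its pseudogenes added), and Rplp1 and Rplp2 rose by 5.60 and 5.16 on the same scale (5.35 and 5.17 with pseudogenes). Rpsa, a small subunit protein also known as a laminin receptor precursor, rose by 4.18 ± 0.39, and Rps27a, made as a fusion with ubiquitin, by 5.27 ± 0.51 (3.75 and 4.96 with pseudogenes). Fau, whose product includes a small subunit protein but whose symbol lies outside the rule, rose by 2.94 ± 0.29, from 3.44 to 28.1 CPM (adjusted p = 2.20e-07).

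The paralogs all rose from L1C to L2C, by 1.70 (Rps27l) to 6.87 (Rpl3l, known from striated muscle). Rpl10l, a retrogene copy of X-linked Rpl10 known from male germ cells, had 2.66, 3.55 and 2.37 CPM in L1C and 130, 130 and 135 in L2C inputs. Rpl36al, the single-exon relative of Rpl36a, had 4.24, 5.46 and 5.22 and then 158, 177 and 134 CPM. Their multi-exon counterparts stood far below them in these counts on gene spans in L2C inputs, with 2.77, 3.11 and 3.12 CPM for Rpl10 and 6.09, 7.51 and 5.42 CPM for Rpl36a. Counted on exons in L2C Ctrl embryos, the order was the reverse. There Rpl10 had a mean of 178 CPM against 77.3 for Rpl10l, and Rpl36a 102 against 18.6 for Rpl36al. The order within these pairs is therefore not settled here.

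Rpl17 and Rpl15 departed from the set. Rpl17, a large subunit protein at the exit tunnel whose locus on chromosome 18 holds 3 small nucleolar RNA genes, had 9.05, 6.76 and 8.95 CPM in MII, 33.0, 28.4 and 21.8 in L1C and 2.88, 2.05 and 4.27 in L2C inputs. The 3 stages did not overlap, and it rose by 1.70 ± 0.24 from MII to L1C (adjusted p = 4.38e-05) and fell by 3.23 ± 0.26 from L1C to L2C (adjusted p = 2.69e-08). With its 82 pseudogenes added the rise was 0.60 ± 0.13 and the fall was -0.82 ± 0.13 (adjusted p = 3.43e-05), and Rpl29 and Rps12 then fell as well. Rpl15, a large subunit protein whose start window above holds the longest of the printed pyrimidine runs, was the highest gene of the set in MII inputs with 31.5, 45.2 and 42.2 CPM, and had 31.5, 27.9 and 21.7 in L1C and 31.8, 27.5 and 29.2 in L2C inputs. Its L1C to L2C change was 0.03 ± 0.17 (adjusted p = 0.87), with overlapping groups, and became 1.38 ± 0.14 with its 31 pseudogenes added (adjusted p = 3.89e-07). Its span overlaps Nkiras1.

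**Figure D2:**
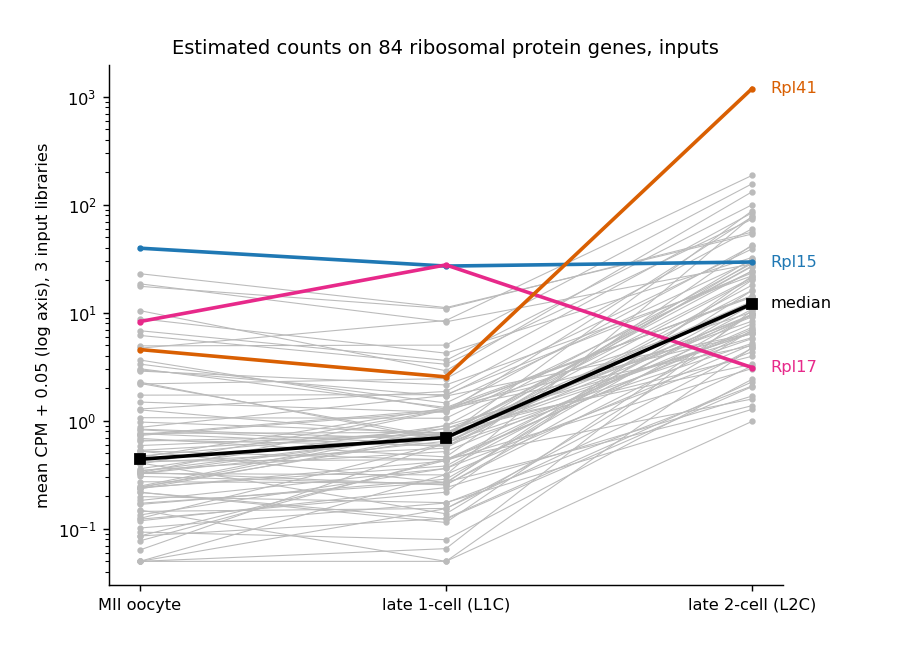
Mean CPM (plus 0.05, log axis) of each ribosomal protein gene in the 3 input libraries of MII oocytes, L1C and L2C embryos, one grey line per gene, with the median of the 84 genes in black. The median line goes from 0.39 to 0.65 and 12.1 CPM before the 0.05 is added, Rpl41 ends highest, Rpl15 stays nearly level and Rpl17 falls.

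Between MII and L1C the set moved in both directions. Of the 84 genes 20 were higher and 17 lower in L1C, against 31.4% and 27.6% of protein-coding genes (31.9% and 24.3% of all genes tested), and the median change of 0.05 stood beside 0.09 over protein-coding genes. The libraries of both stages did not overlap for 20 genes higher and 12 lower in L1C (35.0% and 29.3% of protein-coding genes). Of the set 59 genes were under 1 CPM in MII and 56 in L1C inputs. With pseudogenes added 14 genes were higher and 27 lower, with a median of -0.26, and with only the MII and L1C libraries in the fit 10 were higher and 15 lower among the 52 tested. The largest falls included Rpl10l, from 9.42, 10.5 and 11.4 to 2.66, 3.55 and 2.37 CPM (log2 change -1.91 ± 0.16, adjusted p = 3.66e-07), and Rplp1, from 1.89, 1.95 and 2.86 to 0.374, 1.07 and 0.369 CPM (-1.92 ± 0.35, adjusted p = 0.000394). Rpl14, Rpl31, Rps14 and Rpl22 fell by 1.77, 1.60, 1.28 and 1.13 on the log2 scale, of which Rpl14 was at -1.13 with its pseudogenes added. Rpl27a rose by 2.08 ± 0.47, but was at -0.27 ± 0.31 with its pseudogenes added, and Rpl30, Rps9, Rpl36a and Rps15 rose by 2.03, 1.80, 1.57 and 1.40, but with pseudogenes added Rpl30 and Rps9 were at 1.06 and 1.02, both called, and Rps15 was at 0.19 ± 0.24 and not called. From MII to L2C 80 genes rose and 2 fell (46.7% and 38.4% of protein-coding genes, 47.5% and 37.1% of all genes tested), 80 and 1 of them without overlap (49.8% and 37.4% of protein-coding genes), with a median log2 change of 4.88, or 4.51 with the 12 genes at the floor in MII set to their bound. Among the 52 genes that passed the filter on the MII and L1C inputs alone, 48 rose and 2 fell. The genes that fell over this interval were Rpl17 (-1.54 ± 0.26) and Rpl15 (-0.57 ± 0.17). With pseudogenes added 78 rose and 3 fell over this interval, with a median of 3.48. Rpl17 was then not called (-0.22 ± 0.13), Rpl15 rose (0.74 ± 0.14), and the genes that fell included Rpl37 and Rps12 (-0.96 and -1.20).

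Other genes of the translation machinery moved in both directions from L1C to L2C. On the list of 20 other TOP mRNAs, which includes Fau, 13 rose, 2 fell and 5 did not pass, with a median of 1.68. Pabpc1, the poly(A)-binding protein, rose by 4.80 ± 0.30 and Eef2, the translocation factor, by 3.28 ± 0.20, while Btf3 fell by 0.89 ± 0.25 and Rack1, a scaffold on the small subunit, was at -0.03 ± 0.12. Of 77 mitochondrial ribosomal protein genes 40 rose and 22 fell, with a median of 0.63, where 44.2% and 39.4% of protein-coding genes were called. Of 16 genes of mTOR signalling and cap-dependent translation 11 rose and 3 fell. Larp1 went from 1.52 to 16.8 CPM (log2 change 3.39 ± 0.32), and Mtor rose by 1.56 ± 0.14, whereas Larp4b and Tsc2 fell by 1.20 and 0.48.

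The ratio of IP to input measures the relative m6A level of a gene. At MII 20 genes of the set had a ratio above that of the library as a whole and 3 a lower one, against 18.7% and 25.6% of 16118 protein-coding genes (17.7% and 21.0% of all 21950 genes tested). At L1C the counts were 27 and 0, against 16.0% and 22.5% (15.8% and 18.2% of all genes). At L2C they were 11 and 2, against 21.5% and 26.6% (22.0% and 22.0% of all genes). IP and input libraries did not overlap, higher and lower, for 32 and 1 genes at MII (23.6% and 30.1% of protein-coding genes), 26 and 0 at L1C (22.1% and 26.2%) and 17 and 7 at L2C (27.3% and 32.7%). In the fit of all 18 libraries every gene of the set was tested, but on the libraries of 1 stage alone the filter was passed by 47 genes at MII, 61 at L1C and 84 at L2C. With only the MII libraries in the fit 20 genes were higher and 0 lower. With only the L1C libraries 17 were higher and 0 lower. By a simpler form of the thresholds of the study, taken here as an unadjusted P under 0.05 in edgeR, a ratio above 0 and more than 1 count in every input, 25, 24 and 16 genes passed, against 20.6%, 19.3% and 23.7% of protein-coding genes. The median log2 ratios were 0.64, 0.62 and 0.17 in the set, where those of protein-coding genes were 0.00, 0.00 and -0.01. Over 77 mitochondrial ribosomal protein genes the medians were 0.52, 0.52 and 0.20. Of these, 36, 42 and 26 were called higher and 2, 0 and 4 lower. Over the 20 other TOP mRNAs the medians were 0.49, 0.50 and 0.23, with 7, 5 and 8 higher and 1, 1 and 2 lower. A raised ratio was thus not particular to the set. The TMM scaling sets the ratio of most genes near 0. Scaling to library size alone moved the protein-coding medians to 0.16, 0.29 and 0.24. The counts of genes of the set called higher became 30, 32 and 25, beside 4458, 4836 and 5334 of 16118 protein-coding genes. Every ratio is thus relative to the rest of its library. Sums over genes and pseudogenes gave 41, 40 and 35 genes of the set higher and 3, 2 and 2 lower, with medians of 0.66, 0.68 and 0.45. In that fit 3068, 2617 and 3516 of 16118 protein-coding genes were higher and 4125, 3618 and 4300 lower.

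The counts of called ratios changed when single libraries were left out. L2C IP replicate 2, with the lowest total of all SLIM-seq libraries, had 0.597% of its counts on the set against 0.417% and 0.398% in the other L2C IP libraries, and held the highest of the 3 IP values for 63 of 84 genes. Without it 5 genes were called higher and 2 lower, and without L2C input replicate 1 or 2 there were 6 higher. The 20 genes at MII became 13 without IP replicate 1, 12 without IP replicate 3 and 10 without input replicate 2. The 27 genes at L1C became 14 without IP replicate 3, 13 without input replicate 1 and 17 without input replicate 3. At MII and L1C the median gene of the set had 8.33 and 13.8 counts per input library.

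Counted on the genes alone, 4 of the 84 had a called ratio above 0 at all 3 stages, namely Rpl17, Rpl36al, Rpl37a and Rpl13a, and 11 did at 2 stages. With pseudogenes added 20 genes did at all 3 stages, among them Rpl17, Rpl36al and Rpl37a but not Rpl13a, and 20 at 2 stages. The shares of all genes called at 2 or 3 stages were not counted, so these numbers cannot be read as many or few. In TMM-scaled CPM, Rpl17 had 11.6, 8.51 and 11.1 in MII inputs and 42.0, 39.3 and 38.4 in MII IP (log2 ratio 1.94 ± 0.20, adjusted p = 3.25e-07). In L1C it had 38.4, 32.1 and 25.1 in inputs and 87.7, 81.1 and 71.8 in IP (1.33 ± 0.19), and in L2C 2.58, 1.85 and 4.00 and 7.05, 6.73 and 7.32 (1.29 ± 0.22). All IP libraries exceeded all inputs at each stage. With the pseudogenes of Rpl17 added the ratios were 1.80, 1.27 and 1.12, all called. Rpl36al had 3.95, 7.07 and 7.44 in MII inputs and 17.0, 12.8 and 20.1 in MII IP, and its log2 ratios were 1.44 ± 0.25, 1.53 ± 0.25 and 0.88 at the 3 stages.

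Other named ratios were less stable across stages or counting. At MII Rps9, Rps3a1, Rps24 and Rpl28 had ratios of 2.03, 1.95, 1.72 and 1.40, of which Rps3a1 was at 1.07 with its pseudogenes added. At L1C Rps16, Rpl37a, Rpl14 and Rpl29 had 3.00, 1.90, 1.60 and 1.43, but Rps16 rested on 0, 0 and 5 input counts and was at 0.95 with its pseudogenes added, and Rpl29 was at -0.47 ± 0.15 with its 127 pseudogenes added. At L2C the largest were Rps13 (1.68 ± 0.37), Rpl17, Rpl10 (1.28 ± 0.33, but 0.69 ± 0.47 and not called with its pseudogenes added), Rpl7 (1.08 ± 0.40), Rpl39l (1.03 ± 0.18) and Rpl39 (1.01 ± 0.37). Rpl7l1, a protein of nucleolar large subunit assembly, had 153, 206 and 151 TMM-scaled CPM in L2C inputs and 96.9, 115 and 102 in L2C IP, a log2 ratio of -0.70 ± 0.16 with no overlap (adjusted p = 0.00167). Rpl11, known for binding Mdm2, was at -0.78 ± 0.26 and at 0.22 ± 0.13 with its pseudogenes added. The ratios beyond 4 in size at MII and L1C (Rps27a, Rps27, Rpl13 and Rpl38) set libraries with no counts against libraries with at most 9, so no fold is given for them.

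The change of the ratio between stages was called for few genes. From MII to L1C 1 gene was called higher and 0 lower (3.82% and 5.04% of protein-coding genes, 3.13% and 4.21% of all genes tested), and from L1C to L2C 0 higher and 2 lower (6.09% and 5.42%, 5.00% and 4.47% of all genes). The gene at L1C against MII was Rpl38, which had 2, 0 and 4 counts in MII inputs, 0 in every MII IP and L1C input library and 3, 6 and 2 in L1C IP, so its value has no reliable size. From L1C to L2C the ratio of Rpl37a went from 1.90 ± 0.31 to 0.53 ± 0.18, a change of -1.37 ± 0.36 (adjusted p = 0.0232), and that of Rpl8 changed by -0.96 ± 0.28 (adjusted p = 0.0398). Neither was called lower without L1C IP replicate 3 or L1C input replicate 1, and 4 genes were without L1C IP replicate 2. The median change of the set was -0.43 from L1C to L2C, against -0.00 over protein-coding genes, and -0.01 from MII to L1C, against 0.08. From L1C to L2C the median change was -0.34 over mitochondrial ribosomal protein genes and -0.39 over the other TOP mRNAs.

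**Figure D3:**
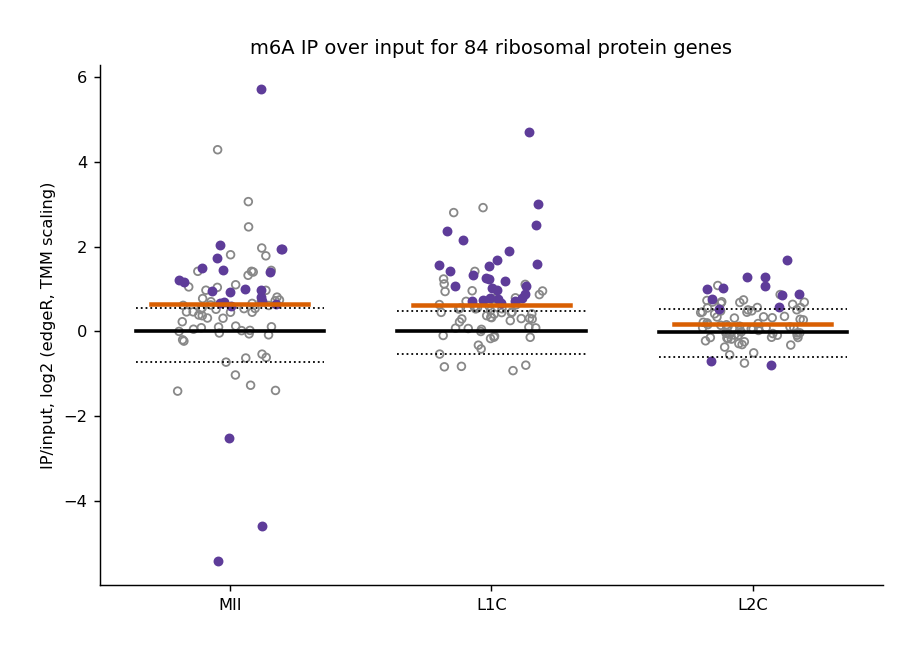
Log2 ratio of IP to input for the 84 ribosomal protein genes at MII, L1C and L2C (edgeR with TMM scaling, 3 IP and 3 input libraries per stage), filled where called and open where not. The orange bars are the medians of the set (0.64, 0.62 and 0.17), black lines and dotted lines the median and quartiles of protein-coding genes, and points beyond 4 in size rest on at most 9 counts in any library.

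After Ythdc1 knockdown ribosomal protein genes were higher at the late 2-cell stage, by a median of 1.60-fold. Ythdc1 itself had a mean of 198 ± 6 CPM in the knockdown (SD, n = 2) and 414 ± 17 in Ctrl (n = 3), a log2 change of -0.99 ± 0.08 (adjusted p = 5.21e-08). The counts of Ythdc1 KD replicate 3 are on hand for 25739 genes only, so the fit over the whole annotation used 2 KD and 3 Ctrl libraries, and a fit of all 6 libraries used the genes in common. Over the whole annotation 78 of 84 genes rose and 0 fell, against 33.0% of 12897 protein-coding genes called higher and 35.1% called lower (30.5% and 36.4% of all 17074 genes tested). The median log2 change of the set was 0.67, beside -0.03 over protein-coding genes. With all 6 libraries 34 of 36 genes rose and 0 fell (35.6% and 36.5% of 5661 protein-coding genes, 33.5% and 37.4% of all 7433 genes tested), 32 and 0 of them without overlap (31.8% and 43.0% of protein-coding genes), with a median of 0.68, and the 48 genes outside that table gave 44 rises and a median of 0.63. Scaling to library size alone moved the protein-coding medians to -0.11 and -0.14, and 76 of 84 and 33 of 36 genes then rose. Among protein-coding genes 3873 of 12897 and 1731 of 5661 then rose.

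The share of all counts on the set was 3.46% and 3.87% in the KD and 2.32%, 2.34% and 2.75% in the Ctrl libraries. Without Rpl41 it was 2.79% and 3.10% against 1.90%, 1.93% and 2.23%. For the 36 genes in the table of 6 libraries the shares of that table were 3.27%, 3.54% and 3.38% in the KD and 2.19%, 2.19% and 2.49% in Ctrl. None of these KD values overlapped the Ctrl values. The pseudogenes held 7.46% of the joint sum in KD and 8.92% in Ctrl libraries. Reads with several alignments were not counted here.

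Of the small subunit genes 30 of 32 rose, with a median of 0.63, and of the large subunit genes 48 of 52, with a median of 0.71. The sizes were modest, with 15 genes above 1 on the log2 scale (13.7% of protein-coding genes above 1 and 21.3% under -1 at an unadjusted P under 0.05 in edgeR, the thresholds the study used with DESeq2), 49 of the called genes between 0.5 and 1 and 14 below 0.5. In the fit of 6 libraries 5 of 36 genes were above 1 (13.8% of protein-coding genes above 1 and 19.6% under -1 by that rule). Of the 84 genes 72 were higher in both KD libraries than in any Ctrl library and 2 were lower in both (34.5% and 43.2% of protein-coding genes).

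The largest rise was that of Rpl39l, the autosomal paralog of X-linked Rpl39 known from male germ cells. It had 245 and 249 CPM in the KD and 82.7, 83.2 and 89.0 in Ctrl libraries, with no overlap and a log2 change of 1.62 ± 0.08 (adjusted p = 5.64e-10). Rpl39 itself rose by 0.89 ± 0.08. Rpl14, of the large subunit, had 78.1 and 98.0 CPM against 33.6, 32.5 and 38.1 (1.42 ± 0.11, adjusted p = 3.45e-08). Rps18, at the head of the small subunit, had 73.0 and 88.5 against 30.8, 28.6 and 39.3 (1.38 ± 0.12, adjusted p = 1.53e-07).

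Rpl22 and Rps4x are in the table of all 6 libraries. Rpl22 had 501, 532 and 478 CPM of that table in the KD and 209, 218 and 255 in Ctrl (1.27 ± 0.08, adjusted p = 9.23e-11), and its paralog Rpl22l1 rose by 1.04 ± 0.13. Rps4x, the X-linked small subunit gene, had 850, 806 and 906 against 378, 378 and 401 (1.27 ± 0.07, adjusted p = 1.32e-11). Rpl34 and Rpl37a rose by 1.20 and 1.00, and Rpl27, in the fit over the whole annotation, by 1.22 ± 0.14. In none of these genes did KD and Ctrl libraries overlap.

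Rpl41 rose by 0.76 ± 0.08, from 4173, 4157 and 5193 CPM in Ctrl to 6771 and 7698 in the KD. The P-stalk genes rose too, with Rplp0 at 0.29 ± 0.09, Rplp2 at 0.41 ± 0.11 and Rplp1 at 0.69 ± 0.12. The Rplp0 and Rplp2 libraries overlapped between the groups before scaling. Rpsa rose by 0.84 ± 0.12 and Rps27a by 0.56 ± 0.07. Fau rose by 0.50 ± 0.11, with overlapping libraries before scaling.

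The 6 genes that did not pass were Rpl13a (0.17), Rpl28 (0.12), Rpl7l1 (0.14), Rps12 (0.16), Rpl36al (-0.13) and Rps10 (-0.82). Rps10 had 1.16 and 2.61 CPM in the KD and 3.86, 2.71 and 3.79 in Ctrl, lower in both KD libraries, with an adjusted p = 0.0682 by edgeR, and its span overlaps the read-through gene RPS10-NUDT3. Rpl36al had 14.4 and 17.9 CPM against 18.5, 18.8 and 18.4, whereas its counterpart Rpl36a rose by 0.67. Rps10 and Rpl28 have a TOP tract at an annotated start, as do Rpl14 and Rps18 above. Rpl7, the relative of Rpl7l1, rose by 0.96, and among other pairs Rpl3l and Rpl3 rose by 1.03 and 0.80 and Rps27l and Rps27 by 0.23 and 0.91. The differences within pairs were not tested.

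**Figure D4:**
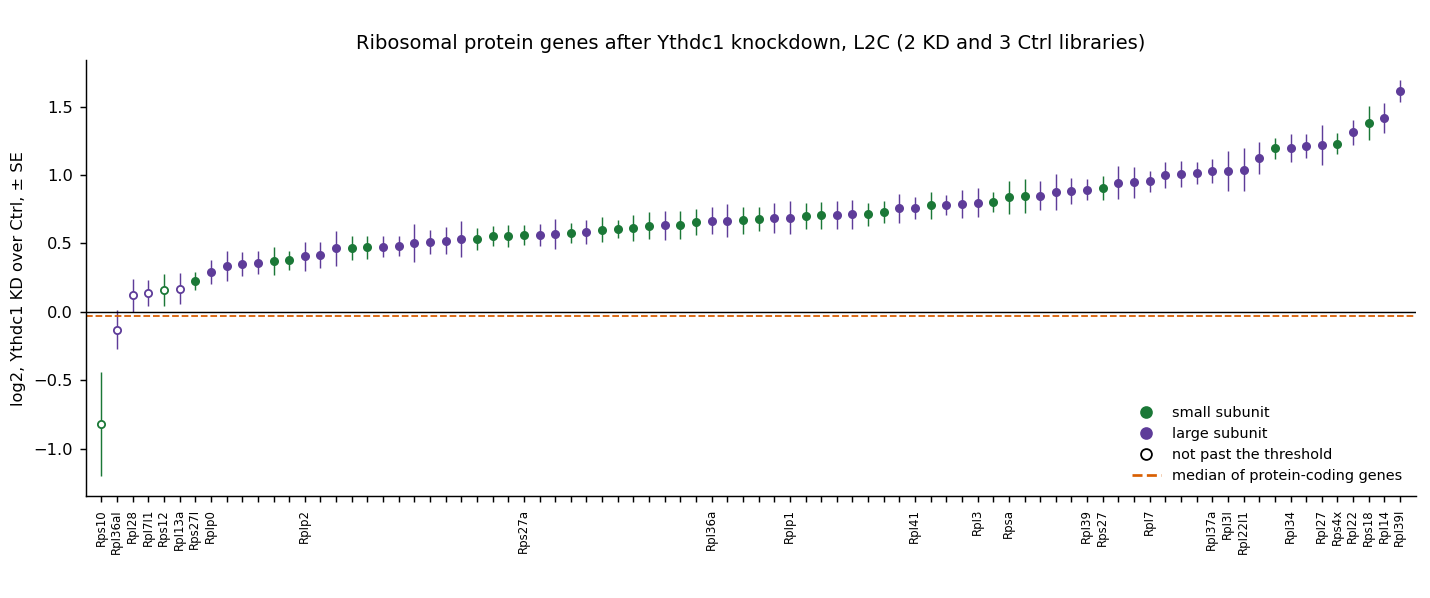
Log2 change of each ribosomal protein gene in Ythdc1 KD against Ctrl L2C embryos, with its SE (edgeR, 2 KD and 3 Ctrl libraries), ordered by size and coloured by subunit, open where not called, with the names of genes described in the text. All but 6 genes were called, and all of those called lie above 0 and above the median of protein-coding genes (dashed, -0.03).

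Other genes of the translation machinery were also more often higher than lower in the knockdown. Of 19 other TOP mRNAs tested 16 rose and 1 fell, with a median of 0.71, among them Rack1 (1.50 ± 0.10), Eif3e (1.23 ± 0.09) and Npm1, a nucleolar chaperone (0.73 ± 0.07), while Tpt1 fell by 0.30 ± 0.07. Of 76 mitochondrial ribosomal protein genes tested 47 rose and 8 fell, with a median of 0.69. Of all protein-coding genes tested 33.0% rose and 35.1% fell, with a median of -0.03. Of 16 signalling genes 8 rose and 4 fell, with Larp4 at 0.78 ± 0.08 and Larp1 at 0.53 ± 0.10, and Rps6kb1, the S6 kinase, and Rptor at -0.34 ± 0.09 and -0.37 ± 0.15. Of the 2-cell markers 9 of 10 were lower and 1 higher in the knockdown, with sums of 303 to 335 CPM in KD and 1073 to 1090 in Ctrl libraries. Of the oocyte markers 7 of 10 were lower and 1 higher, with sums of 762 to 825 and 1691 to 1778 CPM. Of the 14 cumulus and granulosa cell markers 4 passed the filter on low counts, of which 1 was higher and 1 lower. The list summed to 44.97 to 48.05 CPM in KD and 35.84 to 39.44 in Ctrl libraries, without overlap, with Amhr2 at means of 29.2 and 20.5, and 5 of its genes were at 0 in KD and 8 in Ctrl. The part of these markers in the ribosomal protein result was not tested.

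Per length of exonic sequence, the genes of the set spanned 3 orders of magnitude in Ctrl embryos, with a median of 87.1 reads per kilobase of exon, scaled to library size (RPKM). The length joins the exons of all annotated transcripts of a gene, and reads with several alignments were not counted. The values and their order thus also depend on annotation and on pseudogenes. The highest were Rpl41 with 3573, 3559 and 4446 RPKM and Rps27l with 1607, 1667 and 1750, and these values did not overlap each other. Rps29, of the small subunit, stood below both at 1183 ± 160 (SD, n = 3). The lowest were Rpl3l at 7.19 ± 0.59, Rpl22l1 at 5.03 ± 0.51 and Rps10 at 1.50 ± 0.28 RPKM. Of the exonic bases of Rps10, 28.7% also belong to another gene, and reads there were not counted for either. Rps27l thus stood above Rps27, and Rpl36al and Rpl10l below their counterparts.

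The order of the genes differed between the L2C libraries of the 2 experiments. The median gene of the set had 12.1 CPM in L2C inputs, counted on gene spans, and 173.4 CPM in L2C Ctrl embryos, counted on exons, and 79 of 84 genes were lower in the former. Over 14030 other protein-coding genes the medians were 14.5 and 9.56 CPM, and the ratio of the 2 levels had a median log2 of 0.45, beside -3.81 in the set. Across genes Spearman's rho between the 2 levels was 0.31 in the set and 0.71 in other genes, as a description over points that share libraries. The 5 genes that were higher on gene spans were Rps10, Rpl36al, Rpl10l, Rpl3l and Rpl7l1. Rpl36al had 156.5 against 18.6 CPM and Rpl10l 131.8 against 77.3, while Rpl10 had 3.00 against 178 and Rpl36a 6.34 against 102. The embryos, their injection, the library and the counting differ together here and cannot be told apart.

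**Figure D5:**
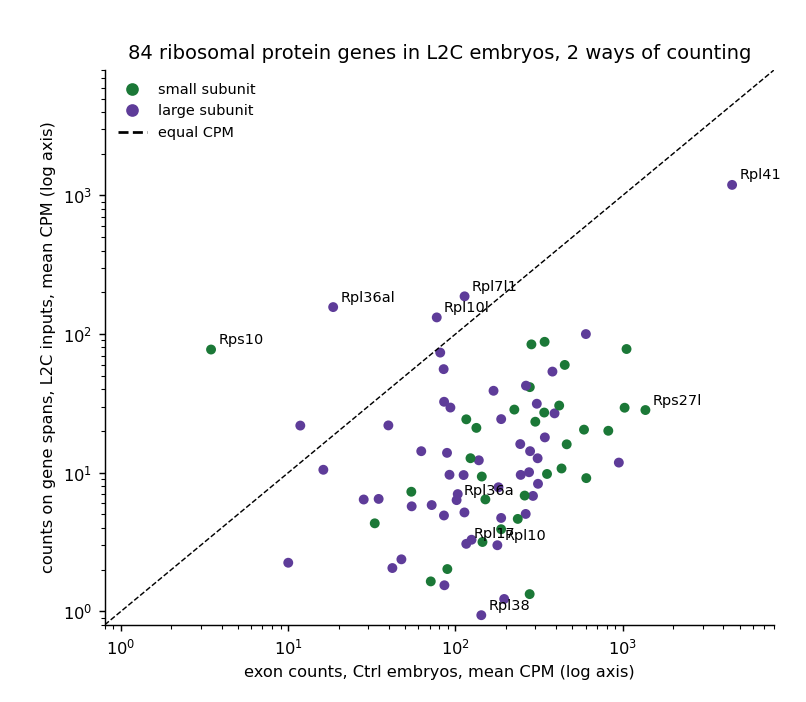
Mean CPM of each ribosomal protein gene in the 3 L2C input libraries of SLIM-seq, counted on gene spans (vertical), against the 3 Ctrl libraries of the knockdown experiment, counted on exons (horizontal), both on log axes and coloured by subunit. Most points lie below the dashed line of equal CPM, and Rps10, Rpl36al, Rpl10l, Rpl7l1 and Rpl3l lie above it.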

How the data were processed

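SLIM-seq libraries of 9 inputs and 9 IPs and 6 knockdown libraries were analysed. The deposited SLIM-seq values are estimated counts, which the authors made with kallisto on whole gene spans of GRCm38, and these were rounded. The deposited knockdown values are counts of reads on exons, which the authors made after trimming (Trimmomatic) and alignment (HISAT2) with featureCounts without strand. The submitters' processing notes also name mm10. Reads shared by genes and pseudogenes could be divided among them by kallisto and were left out by featureCounts. Ythdc1 KD replicate 3 is held for 25739 genes. Gene names are from GENCODE M21 (55144 of 55471 identifiers matched). Pseudogenes were assigned by blastn (at least 80% identity over 50% of their length), 9 by symbol alone.

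Tests used edgeR 4.0.16 (quasi-likelihood, TMM, filterByExpr) and were tested on simulated data. DESeq2 1.42.0, other scalings, filters and fits without each library were alternatives. Replicates of a group exceeded sampling noise (chi-square per degree of freedom at least 2.77). The genes and lists were chosen with earlier results of these data known. Genes are named if among the 6 largest called rises or falls per comparison, given separate groups and 10 or more counts on average, or fixed by name (P-stalk, Rpsa, Rps27a, paralogs with counterparts, Fau, Ythdc1), or among the 3 highest or lowest per exonic length in Ctrl. Some genes that the rule names are not reported here. Rps29, Rpl37, Rpl15, Rpl4, Rpl13a, Rpl28, Rpl29, Rpl38, Rpl37a, Rpl8, Rps12, Rpl41 outside its rule and genes of the other lists were named after their values were seen. No interval or test covers shares of counts. Counts per library limit the precision, and floors cover counting error only.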

Additional observations from a re-analysis of the deposited data

Results flagged for a closer look

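The change of the IP to input ratio from MII to L1C differed from 0 for Rpl38 (log2 9.32), tested as the difference of the ratios in edgeR, but it compares 2, 0 and 4 counts in MII inputs and 0 in MII IP with 0 in L1C inputs and 3, 6 and 2 in L1C IP. From L1C to L2C the same test gave -1.37 for Rpl37a and -0.96 for Rpl8. Rpl37a had 0.387, 0.369 and 0.666 TMM-scaled CPM in L1C inputs and 1.33, 1.59 and 2.24 in L1C IP, against 36.8, 34.4 and 45.0 and 60.3, 62.4 and 45.2 at L2C. Rpl8 had 2.86, 5.17 and 3.27 in L1C inputs and 7.11, 6.49 and 9.90 in L1C IP, against 65.4, 62.4 and 73.2 and 74.0, 67.5 and 74.6 at L2C. The call of Rpl37a was lost without L1C IP replicate 3, L1C input replicate 1 or 2, or L2C IP or input replicate 3, and, like that of Rpl38, with its pseudogenes added. That of Rpl8 was kept, among the fits without 1 library, only without replicate 2 of L1C IP or of L1C input.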

How the results depend on the processing

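Leaving out each library in turn gave 82 genes higher and 1 lower from L1C to L2C in every case, 80 to 81 higher and 2 lower from MII to L2C, and 15 to 21 higher and 14 to 19 lower from MII to L1C. For IP over input it gave 10 to 21 higher and 1 to 2 lower at MII, 13 to 28 and 0 to 1 at L1C and 5 to 12 and 1 to 2 at L2C, and for the change of that ratio 0 to 2 higher and 0 to 3 lower from MII to L1C and 0 higher and 0 to 4 lower from L1C to L2C. From MII to L1C that change had 2 genes higher without MII IP replicate 1, MII input replicate 2 or L1C input replicate 2 and 0 without MII input replicate 3, and 3 lower without L1C IP replicate 3, 2 without MII input replicate 3 and 1 without MII IP replicate 2. From L1C to L2C it had 0 lower also without L2C IP or input replicate 3 and 1 without L2C input replicate 1 or 2. In the knockdown it gave 34 of 36 higher throughout and 72 to 79 of 84 higher and 0 to 1 lower, with 72 without KD replicate 2, where a single KD library is taken to vary like the Ctrl libraries. Summing genes with their pseudogenes gave 27 lower from MII to L1C, 3 lower from L1C to L2C, 41, 40 and 35 higher for IP over input at MII, L1C and L2C with 2 lower at L1C, 1 lower in each change of the ratio, and shares of 0.101%, 0.0822% and 0.548% in inputs and 0.184%, 0.131% and 0.895% in IP libraries. It turned the sign of 4 called genes from MII to L1C, 2 from L1C to L2C and 4 from MII to L2C, and in IP over input of 3 at MII, 2 at L1C and 1 at L2C. These included Rpl27a (-0.27) and Rpl10 (-1.40) from MII to L1C, Rpl29 (-1.04) and Rps12 (-0.85) from L1C to L2C, Rpl15 (0.74), Rpl37 (-0.96) and Rps12 (-1.20) from MII to L2C, and in IP over input Rpl29 (-0.47) at L1C and Rpl11 (0.22) at L2C. Genes called with the opposite sign when summed but not called alone were Rpl10 at MII (-2.22), Rps27a at L1C (0.85) and Rpl36a at L2C (0.60). With only the libraries compared 10 were higher from MII to L1C, 0 lower at MII, 17 higher at L1C and 4 lower at L2C in IP over input, and the change of the ratio had 0 higher from MII to L1C and 5 lower from L1C to L2C. Library size alone gave 25 higher and 1 lower at L2C and 2 higher in the change from MII to L1C. DESeq2 gave 2 higher and 2 lower in that change and 4 lower from L1C to L2C, no filter 2 higher, 1 lower and 9 lower, and RLE scaling 1 lower from MII to L1C. Without a filter 1 gene was lower in the knockdown over the whole annotation. The thresholds of the study applied to edgeR (unadjusted P under 0.05 and a log2 change above 1 in size) gave 5 of 36 and 15 of 84 higher. The cause was not tested. Replicate numbers did not pair the libraries (correlations of same-numbered libraries from -0.154 to 0.133), and the replicate block gave 79 of 84 genes higher in the knockdown, 9 higher at L2C in IP over input and changed no other count by over 1.5 times.

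Low counts on these genes limit the early stages. The median gene had 8.33 counts per MII input library, against 343.5 per L2C input library, and 12 genes had at most 3 in each MII input.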
